A study of Homo sapiens with 2 samples.

Results

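The genes described here are those of the poly(ADP-ribose) polymerase (PARP) family PARP1, PARP2, PARP3, PARP4, PARP6, PARP8, PARP16, TNKS and TNKS2, together with PARG, which encodes poly(ADP-ribose) glycohydrolase. They were chosen by their current NCBI symbols, and all 10 were found among the 23033 genes with a value. The study knocked out FZR1, which encodes an activator of the anaphase-promoting complex, a ubiquitin ligase, in cells that the labels call T-47D, a luminal line of breast cancer, to look for genes behind apoptosis induced by chemotherapy drugs. The control cells carried the WT genotype and the others the genotype FZR1 ko, and both were treated with cisplatin, a drug that crosslinks DNA, at 2 µg/ml. The ko line was made by CRISPR/Cas9 through lentivirus and single cell screening, so it is a clone. Each condition had 1 library, so differences lack a replicate check, no test was made, and each value describes these libraries only. The values are FPKM, in which the fragments of a gene are divided by its transcript length and by the mapped fragments of the library. No number of reads can be read from them, and the depth is unknown.

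PARP enzymes use NAD+ to attach ADP-ribose to proteins. PARP1, PARP2 and PARP3 are switched on by DNA breaks, the tankyrases TNKS and TNKS2 act on telomeric and Wnt pathway proteins, and most other members attach single ADP-ribose units. PARG cuts the chains again. PARP1 protein is also cut by caspases in apoptosis, which the level of its mRNA does not show.

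FZR1 itself (Entrez gene 51343) was at 12.3 FPKM in control against 10.1 FPKM in FZR1 ko. Small indels made by Cas9 need not remove an mRNA, so this does not check the labels. Of 12 luminal marker genes, 5 were below 1 FPKM in both libraries, namely ESR1, PGR, GATA3, CDH1 and KRT19, of which ESR1 and PGR encode the hormone receptors that define luminal lines. KRT8 and KRT18 were high, with at least 552 FPKM in each library. XBP1 (93.4 and 72.6 FPKM), ELF3 (81.8 and 57.5 FPKM), TFF1 (9.8 and 7.52 FPKM) and FOXA1 (5.07 and 4.65 FPKM) were present as well. Among 9 basal and mesenchymal markers, VIM had 315 and 295 FPKM, CD44 65.7 and 59.4 FPKM, FN1 6.33 and 5.88 FPKM and ZEB1 2.82 and 4.45 FPKM, and KRT14, KRT5, TP63 and SPARC were below 1 FPKM in both libraries. The low receptors, GATA3, CDH1 and KRT19 and the high VIM go against the labelled luminal line and the luminal markers present do not, so it is given here as a label only. Between the libraries, the 7 luminal markers kept had a median log2 ratio of -0.10, with 3 higher and 4 lower in FZR1 ko, and the 5 basal and mesenchymal markers kept one of -0.09, with 2 higher and 3 lower. The gene with the highest ratio in each list stood apart from that median. N-cadherin (CDH2) had 2.97 FPKM in control against 15.3 FPKM in FZR1 ko, with a log2 ratio of 2.04, and the epithelial marker EPCAM had 3.9 and 11.5 FPKM (1.35). The part of these 2 differences in those of the PARP genes was not tested. Of 6 leukocyte and stromal markers, PTPRC, CD3E and PECAM1 were below 1 FPKM in both. A log2 ratio here is that of FPKM + 1 in FZR1 ko to FPKM + 1 in control. The added 1 FPKM pulls the ratio of a weakly expressed gene towards 0. Ratios were taken over the 13554 genes that reached 1 FPKM in either library. Their median was -0.0048. All 10 PARP and PARG genes passed this filter, in both libraries.

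Of the 10 genes, 7 were higher in FZR1 ko and 3 were lower, with a median log2 ratio of 0.39, or 0.11 relative to genes of like genomic span, where 49.6% of all genes kept were higher. PARP8, TNKS and PARP1 were at least 1.5-fold higher on the log2(FPKM + 1) scale, and none was 1.5-fold lower. Relative to genes of like genomic span 0 were 1.5-fold higher, and with 5 FPKM added in place of 1 only PARP1 was. Of all genes kept, 18.0% were at least 1.5-fold higher and 17.6% at least 1.5-fold lower. At a threshold of 2-fold none of the 10 passed, against 6.78% of all genes kept that were higher and 6.72% that were lower, or 13.5% in all. With 3 of 10 past 1.5-fold in either direction, the share was near the 35.6% of all genes and is no result about the 10.

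**Figure D1:**
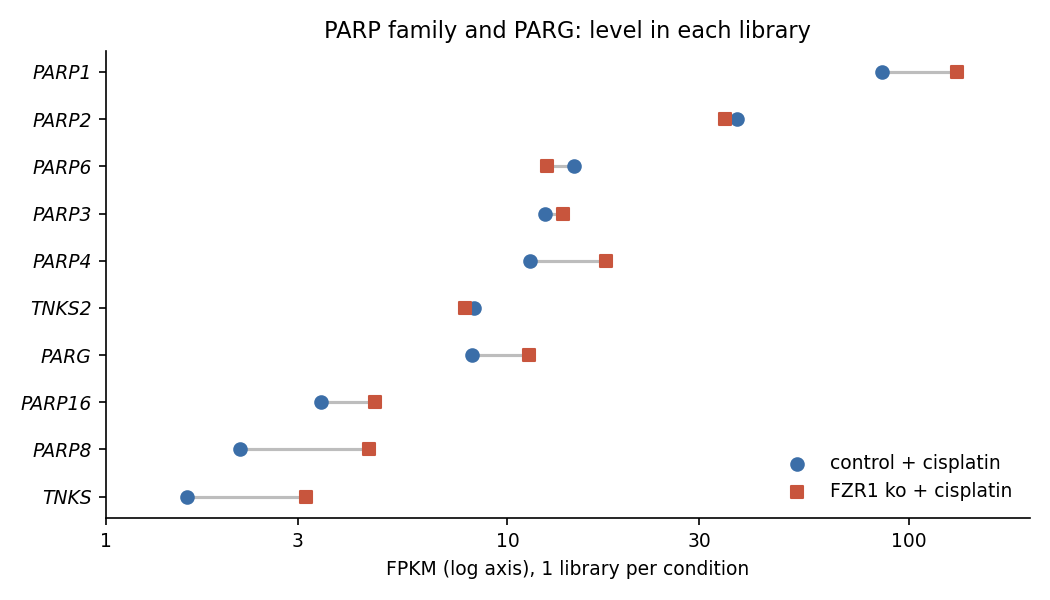
FPKM on a log axis of the 10 genes, ordered by their level in control, with 1 circle for the control library and 1 square for the FZR1 ko library. PARP1 is the highest and TNKS the lowest in both libraries, and PARP2, PARP6 and TNKS2 have the square to the left of the circle.

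PARP1, the main enzyme of poly(ADP-ribose) synthesis at DNA breaks, lies on chromosome 1 from 226360691 to 226408093 on the minus strand (RefSeq, GRCh38.p14, the assembly of hg38). It had 85.8 FPKM in control against 132 FPKM in FZR1 ko, with a log2 ratio of 0.61 and a ratio of 1.54 without a pseudocount. It was the highest of the 10 genes in both libraries, and 95.4% of all genes with a value were at or below it in control and 97.5% in FZR1 ko. The difference of 46.1 FPKM was larger than the level of any other gene of the family in either library. Even so, 83.1% of genes kept had a log2 ratio at or below that of PARP1.

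PARP2, the closest relative of PARP1 in function, did not share this difference. It lies on chromosome 14 from 20343635 to 20357904 on the plus strand and had 37.3 FPKM in control against 34.9 FPKM in FZR1 ko, with a log2 ratio of -0.09, or 0.064 relative to genes of like genomic span. PARP3, on chromosome 3 from 51942363 to 51948867 on the plus strand, takes part in end joining of double-strand breaks. It had 12.4 FPKM in control against 13.8 FPKM in FZR1 ko, with a log2 ratio of 0.14. Within a library, where scaling cancels, the level of PARP1 was 2.30 times that of PARP2 in control and 3.78 times in FZR1 ko. The ratio of PARP1 to PARP3 was 6.93 in control and 9.59 in FZR1 ko. PARP1 made up 63.4% of the summed FPKM of these 3 break-activated enzymes in control and 73.1% in FZR1 ko.

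The sequences before the RefSeq starts of PARP1, PARP2 and PARP3 are shown because these enzymes respond to the same lesion and differed in the libraries, and that of PARP8 because it had the largest log2 ratio. Each is the 250 bases before the start, 5′ to 3′ on the strand of the gene, in the RefSeq table of GRCh38.p14. Such stretches were taken for 8 of the 10 genes, all but PARP4 and TNKS. This count does not show whether the table lacks those genes. Capitals mark matches on either strand to the GC box GGGCGG, the CCAAT box CCAAT, the cAMP response element TGACGTCA or the ETS motif CCGGAAG. For PARP8, which has 3 starts in the table, the first is shown.
PARP1, chr1:226408094-226408343, minus strand: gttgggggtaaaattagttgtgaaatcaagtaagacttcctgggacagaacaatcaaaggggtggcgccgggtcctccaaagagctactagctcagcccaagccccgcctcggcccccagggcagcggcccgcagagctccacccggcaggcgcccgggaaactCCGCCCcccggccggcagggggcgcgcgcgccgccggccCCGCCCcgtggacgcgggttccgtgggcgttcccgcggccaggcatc
PARP2, chr14:20343385-20343634, plus strand: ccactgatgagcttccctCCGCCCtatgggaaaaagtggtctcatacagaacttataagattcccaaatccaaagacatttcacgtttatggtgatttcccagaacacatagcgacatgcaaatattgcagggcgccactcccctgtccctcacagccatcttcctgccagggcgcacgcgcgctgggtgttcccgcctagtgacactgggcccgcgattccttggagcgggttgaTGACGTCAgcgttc
PARP3, chr3:51942113-51942362, plus strand: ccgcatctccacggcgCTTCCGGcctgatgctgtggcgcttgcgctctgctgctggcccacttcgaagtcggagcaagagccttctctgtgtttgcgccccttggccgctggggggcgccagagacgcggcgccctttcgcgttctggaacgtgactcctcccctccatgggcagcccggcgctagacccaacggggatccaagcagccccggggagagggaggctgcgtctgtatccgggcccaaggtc
PARP8, chr5:50665681-50665930, plus strand: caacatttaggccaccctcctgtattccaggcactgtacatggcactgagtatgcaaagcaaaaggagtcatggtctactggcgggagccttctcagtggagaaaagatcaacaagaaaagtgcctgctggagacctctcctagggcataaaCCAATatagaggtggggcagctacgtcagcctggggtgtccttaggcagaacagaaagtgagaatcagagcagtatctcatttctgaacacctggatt
The stretch before PARP1 was 70.4% G and C with 26 CG dinucleotides and held 2 GC boxes, a motif found in 42.6% of the 35116 promoters of the table over the same length. That of PARP2 was 54.4% G and C with 14 CG dinucleotides, and held 1 GC box and, close to the start, 1 cAMP response element, found in 1.65% of promoters. That of PARP3 was 68.4% G and C with 23 CG dinucleotides and held 1 ETS motif, found in 8.52%. The stretch before the first start of PARP8 was 49.2% G and C with 2 CG dinucleotides and held 1 CCAAT box, found in 32.0%. The same length before the other PARP8 starts was 78.0% G and C with 35 CG dinucleotides and 4 GC boxes, and 63.6% with 11 CG dinucleotides and no match. The medians over all promoters of the table were 58.0% and 11 CG dinucleotides. The E2F motifs TTTGGCGC, TTTCCCGC, TTTCGCGC and TTTGCCGC, the AP-1 motif TGACTCA and the TATA box TATAAA were also searched on both strands, and these letters were not in any of the 4 stretches, while 2.79%, 4.20% and 10.7% of promoters held them. None of the matches overlapped another motif. A match to a few letters is a description and not a site of binding.

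The tankyrases differed from each other. TNKS, on chromosome 8 from 9555912 to 9782346 on the plus strand, had 1.59 FPKM in control against 3.14 FPKM in FZR1 ko, with a log2 ratio of 0.68 and a ratio of 1.97 without a pseudocount. TNKS2, on chromosome 10 from 91798426 to 91865475 on the plus strand, had 8.25 FPKM in control against 7.82 FPKM in FZR1 ko, with a log2 ratio of -0.07. Relative to genes of like genomic span the log2 ratios were 0.03 for TNKS and -0.20 for TNKS2. TNKS2 was the more abundant in both libraries, at 5.19 times TNKS in control and 2.49 times in FZR1 ko. The sum of both was 9.84 FPKM in control against 11.0 FPKM in FZR1 ko, so the tankyrase total moved less than TNKS alone.

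Of the other family members, PARP4 and PARP8 were higher in FZR1 ko. PARP8, a mono-ADP-ribosyl transferase on chromosome 5 from 50665931 to 50846519 on the plus strand, had 2.16 FPKM in control against 4.51 FPKM in FZR1 ko, the largest log2 ratio of the 10 at 0.80 and a ratio of 2.09 without a pseudocount. Relative to genes of like genomic span its log2 ratio was 0.16, below those of PARP1 (0.48), PARP4 (0.45), PARP3 (0.35) and PARP16 (0.22). PARP4, a component of the vault particle, lies on chromosome 13 from 24420931 to 24512778 on the minus strand. It had 11.4 FPKM in control against 17.6 FPKM in FZR1 ko, with a log2 ratio of 0.58 that fell just short of 1.5-fold. Without a pseudocount its ratio was 1.54, as for PARP1. PARP16, a transferase anchored in the endoplasmic reticulum, on chromosome 15 from 65230917 to 65286883 on the minus strand, had 3.43 and 4.67 FPKM, a log2 ratio of 0.36. PARP6, on the minus strand of the same chromosome from 72241181 to 72272554, had 14.6 FPKM in control against 12.5 FPKM in FZR1 ko, the lowest log2 ratio of the 10 at -0.21.

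PARG, the hydrolase that opposes these enzymes, lies on chromosome 10 from 49818279 to 49942027 on the minus strand. It had 8.17 FPKM in control against 11.3 FPKM in FZR1 ko, with a log2 ratio of 0.43, a direction that turned to -0.22 relative to genes of like genomic span. The ratio of PARP1 to PARG was 10.5 in control and 11.6 in FZR1 ko, and PARG itself was 1.39-fold higher without a pseudocount. The sum over the 10 genes was 185 FPKM in control against 242 FPKM in FZR1 ko, and PARP1 held 46.4% of it in control and 54.5% in FZR1 ko. Without PARP1, the sum of the other 9 was 99.3 and 110 FPKM.

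**Figure D2:**
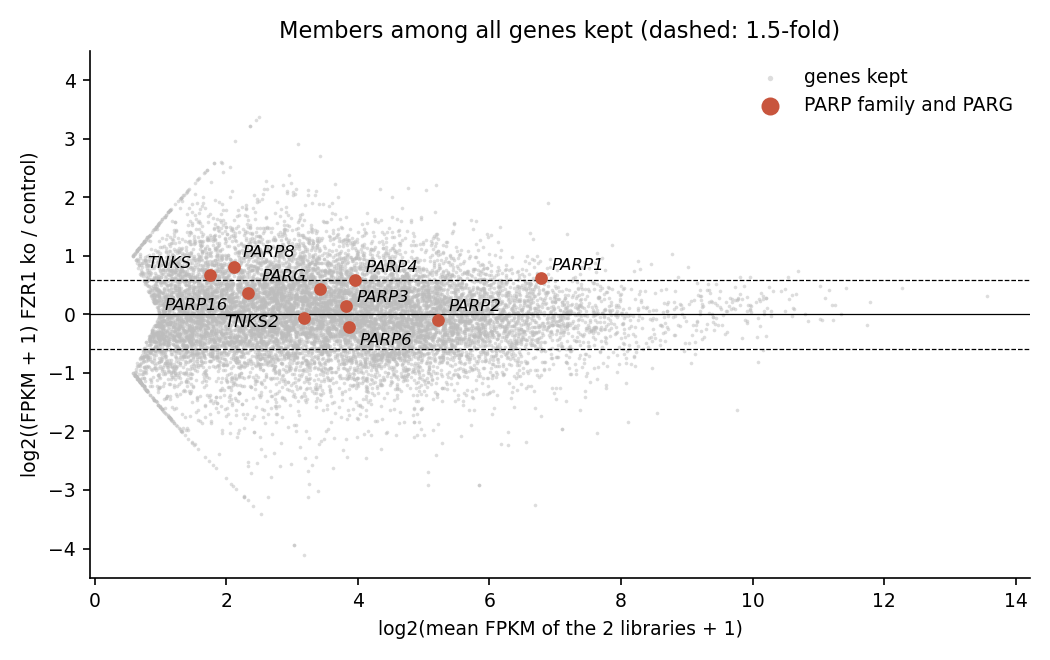
Log2 ratio of FZR1 ko to control against the log2 mean FPKM of both libraries, for 13554 genes kept (grey) and the 10 PARP and PARG genes (red), with dashed lines at 1.5-fold. PARP8, TNKS and PARP1 lie above the upper line, PARP4 on it, and all 10 lie inside the cloud of genes.

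Some of these values can hold reads of other genes. PARG shares sequence with the pseudogene PARGP1, which had 2.05 FPKM in control against 2.64 FPKM in FZR1 ko, so the division of reads between them is uncertain. In the GENCODE 44 annotation, where PARG starts farther upstream than in RefSeq, it also overlaps TIMM23B on the other strand (22.7 and 24.3 FPKM). That overlap lies outside the RefSeq span of PARG. PARP4 overlaps the pseudogene TPTE2P6 on the other strand (0.67 and 1.45 FPKM). PARP16 overlaps RNU5A-1, which was listed at 0 in both libraries and also lies outside the RefSeq span. The sources used here do not say whether the counting used strand. Only genes with a value were searched for as neighbours. Among these, 3 of the 10 genes have in the same annotation a gene of the other strand with a start within 1000 bases. RRP9 starts 441 bases from PARP3 and had 41.0 and 35.2 FPKM, a log2 ratio of -0.22 against 0.14 for PARP3. TNKS2-DT, a noncoding RNA that starts 117 bases from TNKS2, had 1.74 FPKM in control against 0.40 FPKM in FZR1 ko. RPPH1, the RNA of RNase P, starts 208 bases from PARP2 and had 2.5 and 0.75 FPKM. All 3 neighbours were lower in FZR1 ko, while of their partners PARP3 was higher and TNKS2 and PARP2 were slightly lower. Counted from the RefSeq start of PARG, TIMM23B would be such a neighbour too, and it was slightly higher, with a log2 ratio of 0.095.

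The log2 ratios of the 10 genes went with the length of the gene in the genome. TNKS (226 kb), PARP8 (181 kb) and PARG (124 kb) span over 100 kb and had log2 ratios of 0.68, 0.80 and 0.43. PARP4 (91.8 kb), TNKS2 (67.0 kb), PARP16 (56.0 kb), PARP1 (47.4 kb) and PARP6 (31.4 kb) span from 30 to 100 kb, and their log2 ratios ran from -0.21 to 0.61. PARP2 (14.3 kb) and PARP3 (6.5 kb), the shortest, had -0.09 and 0.14. Spearman's rho of log2 ratio and span was 0.73 over the 10 genes and 0.45 over 11550 protein-coding genes kept, all from the same pair of libraries.

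The same order was present across the genome. Protein-coding genes that span over 100 kb had a median log2 ratio of 0.65 (1736 genes), and 55.2% of them were at least 1.5-fold higher in FZR1 ko and 1.90% at least 1.5-fold lower. The median was 0.13 for spans from 30 to 100 kb (3740 genes), -0.16 from 10 to 30 kb (3508 genes) and -0.21 up to 10 kb (2566 genes). Against the median of its own span group, TNKS differed by 0.03, PARP8 by 0.16 and PARG by -0.22. PARP1 differed by 0.48, PARP4 by 0.45 and PARP3 by 0.35, and PARP6 by -0.34. The median of the 10 genes was then 0.11, and none was 1.5-fold from its group. These groups were set after the values were seen, and the part of gene length in the difference of any gene was not tested.

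**Figure D3:**
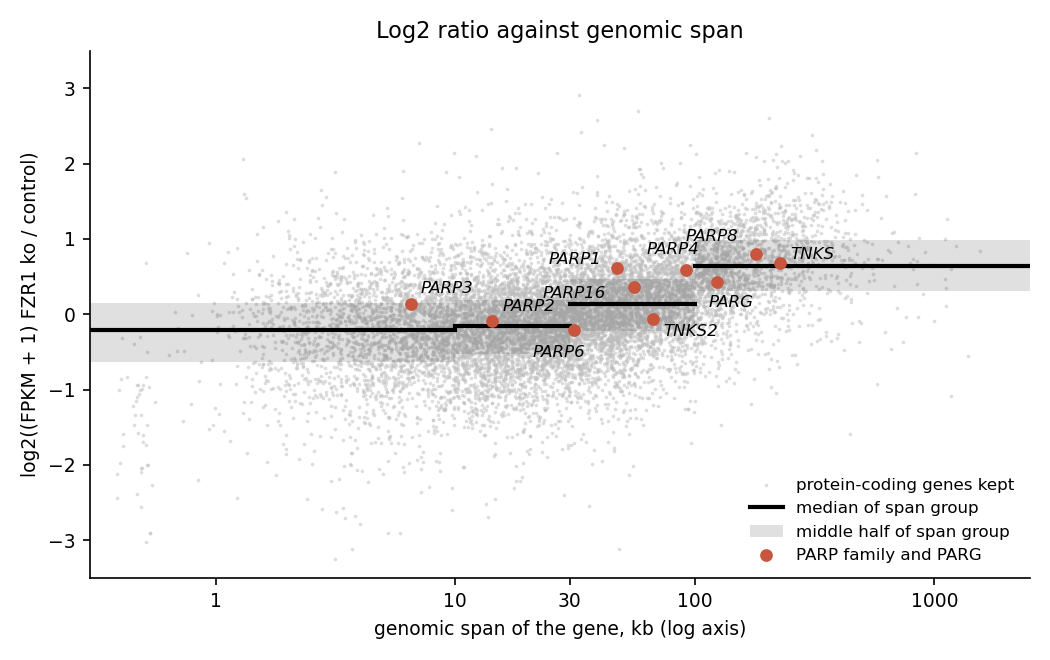
Log2 ratio of FZR1 ko to control against genomic span in kb on a log axis, for 11550 protein-coding genes kept (grey) and the 10 PARP and PARG genes (red). Black lines are the medians of the 4 span groups and shaded bands run from their 25th to their 75th percentile, and TNKS and PARP8 lie within the band of genes over 100 kb while PARP1 and PARP4 lie above the band of genes from 30 to 100 kb.

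Partner genes were described by lists in the same way. The counts past 1.5-fold are to be read against the 18.0% of all genes kept that were higher and the 17.6% that were lower, and no list is said here to differ from them. The 8 other PARP genes, several of them induced by interferon, had 7 kept with a median log2 ratio of 0.30, of which 1 was at least 1.5-fold higher and 1 lower. The median was 0.13 with no filter on low values and 0.17 relative to the span groups. PARP10, with the highest mean of both libraries, had 23.3 FPKM in control against 37.5 FPKM in FZR1 ko (0.67), and PARP12 had 13.95 and 20.6 FPKM (0.53). PARP14, a macrodomain member, was lower, with 19.9 and 12.4 FPKM (-0.64), as was PARP15, with 7.0 and 4.53 FPKM (-0.53).

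Of 13 readers and removers of ADP-ribose, 11 were kept, with a median of 0.51, and 4 were at least 1.5-fold higher and none lower. These 4 are 36.4% of the list, near the 35.6% of all genes past 1.5-fold in either direction, and are no result about it. The median was unstable, at 0.034 with no filter on low values, 0.27 with at least 1 FPKM in both libraries and 0.036 relative to the span groups. MACROH2A1, a histone variant whose macrodomain binds ADP-ribose, had 85.4 FPKM in control against 148 FPKM in FZR1 ko (0.79), and ADPRH had 0.67 and 2.2 FPKM (0.94). HPF1, the cofactor that directs PARP1 to serine and was named after its value was seen, had 7.53 and 11.1 FPKM (0.51), so that PARP1 was 11.4 times HPF1 in control and 11.8 times in FZR1 ko. ADPRS, the hydrolase that removes ADP-ribose from serine, was lower, with 50.2 and 34.1 FPKM (-0.55), as was DTX3L, the ubiquitin ligase partner of PARP9, with 17.9 and 11.9 FPKM (-0.55).

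The 20 genes of single-strand break and base excision repair, many of which act where PARP1 is activated, had a median of -0.01, with 4 at least 1.5-fold higher and 5 lower. XRCC1, the scaffold that binds poly(ADP-ribose), had 11.4 FPKM in control against 22.6 FPKM in FZR1 ko (0.93), a larger log2 ratio than that of PARP1, and LIG1 had 16.7 and 28.9 FPKM (0.76). FEN1, a flap nuclease and the most abundant of the list, was lower, with 276 and 167 FPKM (-0.73). The glycosylases MBD4, with 80.3 and 37.1 FPKM (-1.09), and MPG, with 69.1 and 35.6 FPKM (-0.94), were lower still. Of 10 end joining genes, 8 were higher, with a median of 0.39, or 0.14 relative to the span groups, 2 at least 1.5-fold higher and 1 lower. These 3 of 10 are near the 35.6% of all genes. PRKDC, the catalytic subunit of DNA-dependent protein kinase, had 13.3 and 31.5 FPKM (1.18), XRCC4 had 0.81 and 1.90 FPKM (0.68) and XRCC6, the most abundant, had 190 and 247 FPKM (0.38). LIG4, the ligase of this pathway, was lower, with 16.1 and 6.56 FPKM (-1.17), and DCLRE1C had 4.75 and 3.66 FPKM (-0.30).

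Of 20 genes of NAD supply and use, 16 were kept, with a median of 0.02, 3 at least 1.5-fold higher and 3 lower. NMNAT1, the nuclear enzyme that makes NAD, had 17.5 FPKM in control against 8.65 FPKM in FZR1 ko (-0.94), and SLC25A51, the mitochondrial NAD carrier, had 11.9 and 6.29 FPKM (-0.83). NNMT, which draws nicotinamide out of the NAD cycle, had 10.4 and 21.7 FPKM (0.99), QPRT had 11.7 and 21.3 FPKM (0.81) and NAPRT, the most abundant, had 95.1 and 128 FPKM (0.42).

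The 15 tankyrase partners and Wnt pathway genes had 14 kept, with a median of -0.03, 4 at least 1.5-fold higher and 3 lower. RNF146, the ubiquitin ligase that recognises tankyrase products, had 13.8 FPKM in control against 7.62 FPKM in FZR1 ko (-0.78), and the telomere protein gene TERF2 had 25.6 and 10.9 FPKM (-1.16). GSK3B had 3.10 and 6.33 FPKM (0.84) and USP25, a tankyrase-binding deubiquitinase, had 2.13 and 4.57 FPKM (0.83), while CTNNB1, the most abundant, had 85.8 and 85.5 FPKM. Of the 6 partners of PARP4 and PARP16, none was 1.5-fold apart, and the median was -0.24. MVP, the major vault protein that carries PARP4, had 24.8 and 25.8 FPKM (0.06), and TEP1, another vault component, had 4.09 and 2.95 FPKM (-0.37). ERN1, the stress sensor IRE1 that PARP16 modifies, had 2.57 and 1.69 FPKM (-0.41), HSPA5, the most abundant, had 203 and 166 FPKM, and KPNB1 had 135 and 166 FPKM (0.30).

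Cell cycle genes had medians slightly below 0. The 15 G1/S genes had a median of -0.18, with 1 at least 1.5-fold higher and 4 lower, and the 12 G2/M genes one of -0.17, with 0 higher and 1 lower. Relative to the span groups the medians were -0.11 and -0.025. The median spans of the lists, 16.8 and 18.2 kb, fall in the group whose own median was -0.16. PCNA, the most abundant G1/S gene, had 328 FPKM in control against 212 FPKM in FZR1 ko (-0.62), and CDK1, the most abundant G2/M gene, had 116 and 80.8 FPKM (-0.52). The ranges of these lists were wide, from CCNE2 (-1.63) and CCNE1 (-1.27) to MCM6 (0.25) and UHRF1 (0.92), and from CCNB2 (-0.79) and MKI67 (-0.58) to BUB1 (0.16) and TOP2A (0.23).

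The values of the low members depended on the pseudocount. With a pseudocount of 5 FPKM the log2 ratio of PARP8 was 0.41 and that of TNKS 0.30, both under 1.5-fold, and PARP1 was the only one left past it. PARP1 ran from 0.48, after the median of its span group was taken off, to 0.62 over 9 alternatives.

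**Figure D4:**
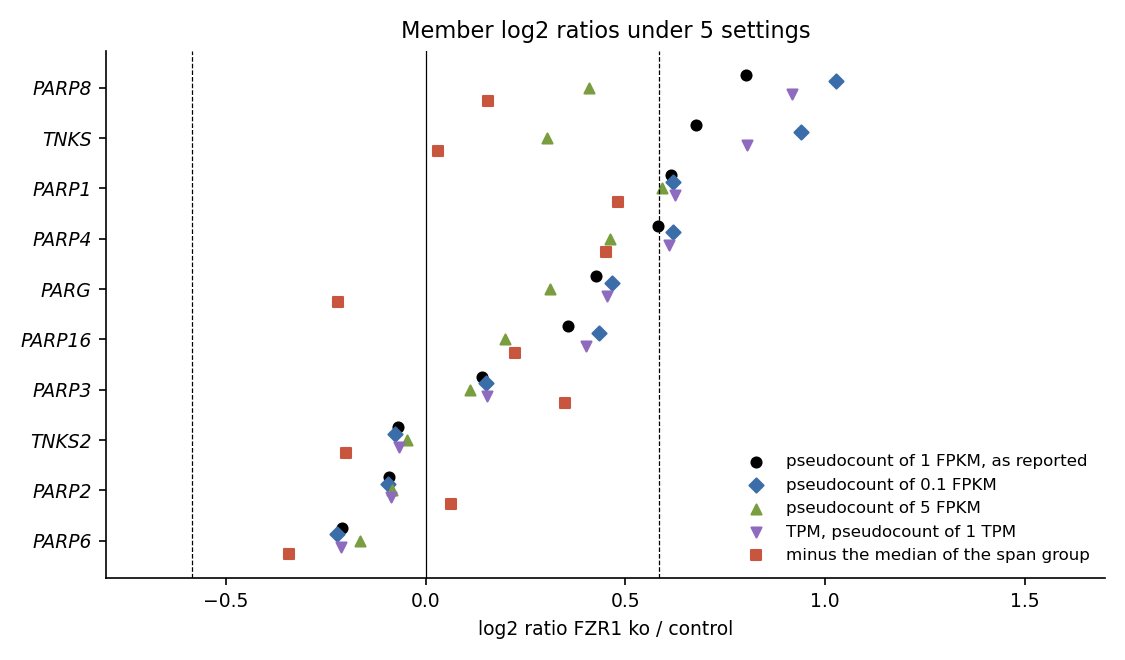
Log2 ratio of the 10 genes under 5 settings, with dashed lines at 1.5-fold. PARP1 stays close to 0.6 except where the median of its span group is taken off, while TNKS and PARP8 range from 0.03 and 0.16 to 0.94 and 1.03 over these settings.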

How the data were processed

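The data were 2 RNAseq libraries, 1 of control and 1 of FZR1 ko cells, both given cisplatin and both labelled T-47D. Total RNA was sequenced on the BGISEQ-500 platform. Reads were mapped by the authors to transcripts of hg38 and quantified with RSEM. The submitters' processing notes name Trimmomatic 0.36, HISAT2 2.1.0, Bowtie2 2.2.5 and RSEM. The annotation and the use of strand are not given in the sources used here. The deposited values are FPKM to 2 decimals, listed by Entrez gene ID, in a table of 24663 rows, of which 23033 have a value. Of these IDs, 22925 (99.5%) matched a symbol in the RefSeq table of GRCh38.p14.

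The log2 ratio of FPKM + 1 in FZR1 ko to FPKM + 1 in control was computed for the 13554 genes that reached 1 FPKM in either library, and genes at least 1.5-fold or 2-fold apart were counted. The genes and lists were chosen, from general knowledge, with earlier results of these data known. Named were all 10 genes, FZR1, and in each list the gene with the highest mean FPKM and the 2 highest and 2 lowest log2 ratios, and of the marker lists genes below 1 FPKM in both libraries or above 100 FPKM in one. HPF1, CDH2, EPCAM, CD44, FN1, ZEB1, XBP1, ELF3, TFF1 and FOXA1 were named after their values were seen. No gene of a like pattern was named, since a pair of libraries gives no measure of likeness.

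Genomic span was the RefSeq start to end of a gene, in groups split at 10, 30 and 100 kb. Motifs were searched on both strands of the 250 bases before each RefSeq start. Neighbours and overlapping genes were taken from GENCODE 44, and only those with a value were kept. Other settings tried were a pseudocount of 0.1 or 5 FPKM, other filters, centring on the median, rescaling to TPM, protein-coding genes only and the list without PARG. The span groups and a ratio with no pseudocount were chosen after seeing the data. Python 3.11.15, numpy 2.4.6, pandas 2.3.3 and matplotlib 3.10.9 were used.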

Additional observations from a re-analysis of the deposited data

How the results depend on the processing

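No paired analysis was possible because control and FZR1 ko are single libraries, and no replicate could be left out. Without replicates a median was taken to have moved when it shifted by over 0.2. Of 90 log2 ratios of the 10 genes under other settings, 79 stayed on the same side of 0 and of 1.5-fold. Only the removal of the span group median, added after the data were seen, turned a direction. It gave PARP2 0.064 in place of -0.09 and PARG -0.22 in place of 0.43, and it lowered the median of the 10 genes from 0.39 to 0.11 and their number at least 1.5-fold higher from 3 to 0. With a pseudocount of 5 FPKM that number was 1. With a pseudocount of 0.1 FPKM, or with none, PARP8 passed 2-fold, so 1 gene did in place of 0. PARP4 passed 1.5-fold with a pseudocount of 0.1 FPKM, centred on the median, as TPM and with no pseudocount.

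Of all genes, 2440 were at least 1.5-fold higher and 2387 lower. These were 1113 and 1238 with a pseudocount of 5 FPKM, by its construction, and 1510 were higher after the span group median was taken off. That setting also keeps only protein-coding genes, of which 2125 were higher with no other change. At 2-fold, 919 were higher and 911 lower. The higher ones were 1460 with a pseudocount of 0.1 FPKM, 183 with one of 5 FPKM and 409 without the span group median, and the lower ones 270 and 558 under the last 2 settings. Protein-coding genes alone gave 738 higher and 657 lower, so part of the fall without the span group median is the smaller set of genes. The median of the readers and removers of ADP-ribose, 0.51, rested on few genes. It was 0.034 with no filter, 0.27 with at least 1 FPKM in both libraries, 0.30 with that filter and no pseudocount, and 0.036 without the span group median. The last setting gave the end joining list 0.14 in place of 0.39 and the base excision repair list 0.091 in place of -0.01. The cause of the shifts with span was not tested. The depth behind each value is unknown, so its limit on single genes was not assessed.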
